A study of Mus musculus with 16 samples.

Results

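The 42 genes described here encode the antioxidant, glutathione and NADPH oxidase enzymes of the left atrium (LA), chosen by symbol. All 42 were found among the 24972 genes of the table, and all passed the filter on low values (a mean of at least 10), so each was tested. The libraries came from 24-month-old female C57BL6/J mice, with 4 libraries in each of 4 groups. Ovx + AngII mice were ovariectomized at 12 months of age and received angiotensin II (AngII) for the last 4 weeks, whereas Ovx mice had the same surgery and no AngII. AngII mice kept their ovaries and received AngII for 4 weeks, whereas Control mice had neither. AngII was infused by a subcutaneous minipump. By the study's methods, sham surgery involved no minipump filled with vehicle, so AngII cannot be told apart from carrying a pump. The labels do not name the animal behind each library, so p-values measure the spread between these libraries.

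Reactive oxygen species are made in the atrial wall by mitochondria and by NADPH oxidases, membrane enzymes that pass electrons from NADPH to oxygen. Superoxide dismutases turn superoxide into hydrogen peroxide, which catalase breaks down. Glutathione peroxidases and peroxiredoxins reduce it, mainly with glutathione or thioredoxin as electron donors. Glutathione S-transferases join glutathione to reactive lipids and foreign compounds. The transcription factor NRF2, held back by KEAP1 in resting cells, switches on many of these genes, and AngII is a known stimulus of NADPH oxidases in blood vessels and heart.

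Values are rescaled normalised counts, that is, the deposited size-factor-normalised read counts brought to a common scale by median-of-ratios factors. Column totals of the deposited values were 19592551 to 21513796 in the AngII and Control libraries and 17598222 to 18985762 in the Ovx + AngII and Ovx libraries. Atrial markers were high throughout, with Nppa, the atrial natriuretic peptide gene, at 384879 to 827300 and Myl7, the atrial myosin light chain gene, at 53129 to 120448. These ranges hold group differences. Nppa was at 722997 to 827300 in Ovx + AngII against 384879 to 490026 in Ovx atria. Myl7 was lower, at 79625 to 86542 against 104905 to 113888. Nppa was also higher in AngII than in Control atria without overlap, whereas Myl7 overlapped there. Control replicate 4 had the lowest Myl7. Control replicate 4 stood apart, with a mean correlation of 0.945 with its own group, against 0.963 to 0.980 for the other 15 libraries. The share of haemoglobin genes was 0.788% in AngII replicate 4 and 0.550% in Control replicate 4, and 0.0331% to 0.194% elsewhere. Macrophage and monocyte markers (10 genes) summed to 44826 in Control replicate 4, against 14524 to 27112 in the other libraries. The heading of the deposited table is placed so that this library could be read as an AngII one, but its own label calls it a control, which was followed here. Counts of passing members in AngII against Control and in Ovx + AngII against Ovx are given with and without Control replicate 4.

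The glutathione peroxidases are shown first by their catalytic codon, because those that rose with AngII do not share it. In Gpx1, Gpx3 and Gpx4 this codon is TGA, read as selenocysteine, whereas Gpx7 and Gpx8 carry a cysteine codon in its place. Each line gives coding sequence of 27 bases from the GENCODE transcripts (build GRCm38), 5′ to 3′ in the sense of the gene, with the catalytic codon in capitals.
Gpx1 (chr9:108339439-108339465, plus strand, exon 1): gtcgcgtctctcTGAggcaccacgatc
Gpx3 (chr11:54907244-54907270, plus strand, exon 2): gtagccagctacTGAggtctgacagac
Gpx4 (chr10:80054725-80054751, plus strand, exon 3): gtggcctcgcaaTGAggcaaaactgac
Gpx7 (chr4:108403418-108403444, minus strand, exon 2): gtagctagcgaaTGTggcttcacagac
Gpx8 (chr13:113045649-113045675, minus strand, exon 2): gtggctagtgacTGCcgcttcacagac

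Promoters are shown for the 2 members with the largest change, Nox4 upward and Gstt1 downward, and for Gstm2 and Gstm5, genes of 1 cluster on chromosome 3 that were both lower with AngII in the average. Each is 250 bases ending at a RefSeq start site (build GRCm38.p6), 5′ to 3′ in the sense of the gene. For Nox4 and Gstt1 that site is not the outermost start. It lies inside the RefSeq gene span, which is 87244430 to 87398710 on chromosome 7 for Nox4. The span is 75783813 to 75798584 on chromosome 10 for Gstt1.
Nox4 (chr7:87246399-87246648, plus strand): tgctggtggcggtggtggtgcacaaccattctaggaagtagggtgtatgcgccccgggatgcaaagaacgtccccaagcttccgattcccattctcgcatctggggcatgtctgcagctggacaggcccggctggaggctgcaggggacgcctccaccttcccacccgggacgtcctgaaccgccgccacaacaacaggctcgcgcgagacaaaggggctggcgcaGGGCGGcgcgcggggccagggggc
Gstt1 (chr10:75797732-75797981, minus strand): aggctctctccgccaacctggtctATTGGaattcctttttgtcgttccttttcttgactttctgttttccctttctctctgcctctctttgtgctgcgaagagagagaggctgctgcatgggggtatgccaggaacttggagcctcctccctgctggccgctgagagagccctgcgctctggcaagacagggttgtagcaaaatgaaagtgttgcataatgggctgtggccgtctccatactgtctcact
Gstm2 (chr3:107986421-107986670, minus strand): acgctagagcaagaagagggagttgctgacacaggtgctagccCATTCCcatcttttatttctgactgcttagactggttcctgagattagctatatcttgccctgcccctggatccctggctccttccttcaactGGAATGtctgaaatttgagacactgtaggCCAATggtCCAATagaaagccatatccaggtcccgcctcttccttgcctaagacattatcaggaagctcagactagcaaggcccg
Gstm5 (chr3:107895604-107895853, plus strand): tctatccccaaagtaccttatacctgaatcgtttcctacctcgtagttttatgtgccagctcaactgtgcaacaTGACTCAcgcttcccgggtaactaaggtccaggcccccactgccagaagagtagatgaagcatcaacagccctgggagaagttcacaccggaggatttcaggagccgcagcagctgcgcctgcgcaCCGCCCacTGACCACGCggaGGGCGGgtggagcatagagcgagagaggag
Capitals mark matches on either strand to any of 6 motifs: the antioxidant response element core bound by NRF2 (TGACNNNGC), the AP-1 site (TGANTCA), the TEAD site (CATTCC), the GC box (GGGCGG), the CCAAT box (CCAAT) and the TATA box (TATAAA). Motifs may overlap, and an antioxidant response element core can contain an AP-1 site. Nox4 held a GC box 24 bases before the internal start site used here, and Gstt1 a CCAAT box 226 bases before its own. Gstm2 held TEAD sites at 207 and 114 bases and CCAAT boxes at 85 and 77 bases. Gstm5 held an antioxidant response element core at 42 bases, an AP-1 site at 176 bases and GC boxes at 50 and 30 bases.

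RefSeq entries of this kind were matched for 36 of the 42 members, with 45 start sites between them, and Sod3, Hmox1, Gsta4, Gsr, Prdx6 and Gclc had none. The antioxidant response element core was found in 8 of the 45 promoters (17.8%), against 10.2% of all 32851 promoters in the table. Members with it were Gclm, Gsta3, Gstm5, Mgst1, Nfe2l2, Prdx1, Sod1 and Txnrd1, of which Gstm5 and Prdx1 differed with AngII in the tests below. GC boxes were found in 29 of the 45 (64.4%), against 32.7% of all promoters, and AP-1 sites in 5 of the 45 (11.1%), against 6.75%. Shares for CCAAT boxes were 40.0% against 33.9%, for TATA boxes 13.3% against 12.4% and for TEAD sites 8.89% against 12.6%. A match is a run of letters and not a measured binding site.

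Levels between genes were compared per kilobase of exon. Gpx3, the secreted plasma glutathione peroxidase, was the most abundant member at a mean of 49562 rescaled counts per kilobase over the 16 libraries. Next came Sod1, the cytosolic superoxide dismutase, at 5769.9 and Gpx4, which reduces lipid peroxides in membranes, at 5231 per kilobase. Txnip, an inhibitor of thioredoxin, reached 5016 and Gstm1 reached 4786 per kilobase. At the other end stood Nox4, the constitutively active NADPH oxidase catalytic subunit, at 34.4, then Gclm, the regulatory subunit of glutathione synthesis, at 68.9, and Txnrd2, the mitochondrial thioredoxin reductase, at 101 per kilobase. The 42 members together held 0.830% to 0.953% of the values of a library, and 0.434% to 0.552% without Gpx3.

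The first question was whether AngII changed these genes, with ovaries removed or kept. A member passed at a limma p, adjusted by the Benjamini-Hochberg method over all 14270 tested genes, of at most 0.05, and it counted as at least 2-fold changed when its log2 fold change also reached 1 in size. In Ovx + AngII against Ovx atria, 8 of 42 members passed, against 10.3% of all genes. Gpx8, Sod3 and Nox4 were the 3 that were higher, beside 5.97% of all genes, and Prdx1, Gstm1, Gstm2, Gstp1 and Gstt1 the 5 that were lower, beside 4.29%. In AngII against Control atria, 2 members passed, Gpx8 and Nox4, both higher, against 2.82% of all genes (1.56% higher and 1.27% lower). The average of the AngII effects uses the same libraries with more power, and there 13 members passed, 5 higher and 8 lower, against 17.7% of all genes (9.17% higher and 8.52% lower). Among the 13 were the 8 named above, together with Gpx3 and Gpx4, which were higher, and Hmox2, Sod2 and Gstm5, which were lower. Nox4 reached 2-fold in both comparisons and in their average, and Gstt1 in Ovx + AngII against Ovx atria. The share of all genes that did so was 2.33% in Ovx + AngII against Ovx, 0.554% in AngII against Control and 2% in the average.

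The values of the groups did not overlap for 16 members in Ovx + AngII against Ovx atria, 8 higher and 8 lower, where 21.8% of all genes did not overlap (11.8% higher and 10% lower). In AngII against Control atria this held for 4 members, 3 higher and 1 lower, where 7.15% of all genes did not overlap (3.77% higher and 3.38% lower). Gpx3, Gpx8, Prdx1 and Nox4 were the 4, and they were also without overlap in the same direction in Ovx mice, as were 3.15% of all genes in both comparisons. The median log2 fold change of the 42 members was -0.10 in Ovx + AngII against Ovx and -0.12 in AngII against Control atria, and that of all genes -0.01 in each. Below 0 were 30 members in Ovx + AngII against Ovx, beside 51.3% of all genes, and 27 members in AngII against Control, beside 52.1%.

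**Figure D1:**
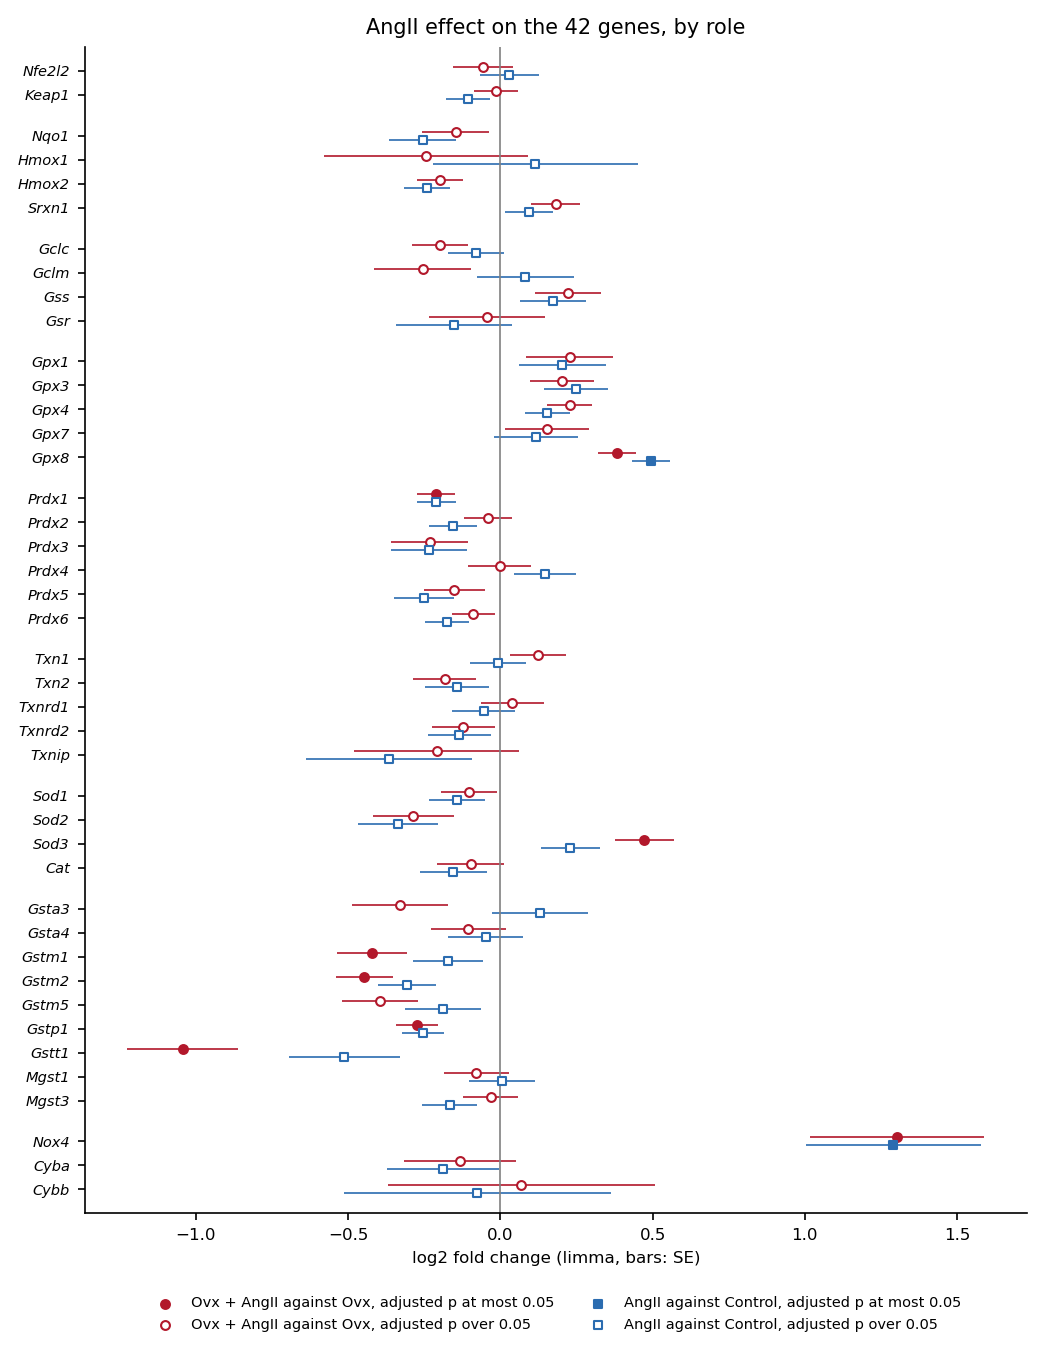
Log2 fold changes of the 42 genes (x axis, limma, bars are the SE) in Ovx + AngII against Ovx (red circles) and AngII against Control (blue squares) atria, with genes down the page by role and filled symbols at an adjusted p of at most 0.05. Nox4 lies farthest to the right in both comparisons, all 5 glutathione peroxidases lie right of 0, and Gstt1 lies farthest to the left. Of all tested genes, 51.3% lay left of 0 in Ovx + AngII against Ovx and 52.1% in AngII against Control.

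The NADPH oxidase members were Nox4, Cyba and Cybb, and only Nox4 passed the test. Nox4 makes hydrogen peroxide and is found in fibroblasts, smooth muscle, endothelium and cardiomyocytes. It had 165, 153, 142 and 235 counts in Ovx + AngII atria, against 60.3, 72.0, 82.9 and 61.2 in Ovx atria. Every Ovx + AngII library was above every Ovx library, with replicate 4 the highest. Nox4 rose by 1.30 ± 0.29 on the log2 scale (SE, limma adjusted p = 0.00966), or 2.47-fold. In AngII atria it had 388, 167, 199 and 119 counts, against 86.3, 99.2, 55.5 and 87.5 in Control atria. These groups did not overlap either, although AngII replicate 1 was far above the other AngII libraries and AngII replicate 4 came close to the highest Control library. The difference was 1.29 ± 0.29 on the log2 scale (limma adjusted p = 0.0281). It missed the threshold without Control replicate 1 (0.0728), Control replicate 3 (0.0844), AngII replicate 1 (0.0576) or AngII replicate 3 (0.0757), with voom weights (0.0528), or in a fit of the AngII and Control libraries alone (0.197), as limma adjusted p. Over both comparisons Nox4 was 2.46-fold higher with AngII (limma adjusted p = 0.000502).

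Smooth muscle and pericyte markers were Myh11, Acta2, Cnn1, Tagln, Des, Rgs5, Pdgfrb and Cspg4. A sum of counts weighs abundant genes most, and levels of single markers are not given here. These markers differed between the same groups as Nox4. Their summed level (8 genes, all tested, 7 higher in the average AngII comparison) was 62619 to 83621 in Ovx + AngII atria, against 29251 to 34200 in Ovx atria. In AngII atria it was 43725 to 78971, against 31889 to 42052 in Control atria. Within the Ovx + AngII group replicate 4, the highest for Nox4, had the lowest sum and replicate 3, the lowest for Nox4, the highest. Within the AngII group replicate 4 was the lowest for Nox4 and for this sum. Replicate 1 was the highest there for Nox4 and replicate 3 for the sum. Fibroblast markers included Col1a1, which the paper reports as raised by AngII in both atrium and ventricle. The 8 fibroblast genes (4 higher in the average) summed to 53875 to 66254 in Ovx + AngII, against 44632 to 51415 in Ovx atria. The same sum was 53584 to 68318 in AngII, against 46690 to 50284 in Control atria. It was highest in Ovx + AngII replicate 4 and AngII replicate 1, the highest libraries of their groups for Nox4. Its lowest AngII library, replicate 4, was also the lowest for Nox4, whereas its lowest Ovx + AngII library, replicate 2, was not. Endothelial markers (8 genes, 3 higher in the average) summed to 37597 to 46149 in Ovx + AngII, against 33877 to 36799 in Ovx atria. Their sum was 45068 to 52263 in AngII, against 33363 to 54408 in Control atria, where the highest was 39201 once replicate 4 was left out. None of these markers was at 0 in every library, and their part in the Nox4 difference was not tested. In bulk tissue, more cells of a type and more RNA per cell cannot be told apart, and this holds for every gene below.

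Cyba and Cybb encode p22phox, the partner that stabilises NOX proteins, and gp91phox (NOX2), the catalytic subunit of phagocytes. Cybb had 553, 515, 735 and 629 counts in Ovx + AngII atria, against 482, 503, 669 and 669 in Ovx atria. The groups overlapped, and the log2 fold change was 0.07 ± 0.44 (SE, limma adjusted p = 0.945). In AngII atria Cybb had 710.5, 1191, 741 and 788 counts, against 432, 559, 729.8 and 3450.4 in Control atria. Control replicate 4 was the highest of the 16 libraries and set the mean of its group, and of the other Control libraries replicate 3 alone reached the AngII range. Cyba had 554, 608, 566 and 578 counts in Ovx + AngII atria, against 598, 680.2, 656 and 596 in Ovx atria. For Cyba in AngII atria the counts were 653, 678, 606 and 769, against 538, 699, 699 and 1325 in Control atria. Here too the groups overlapped and Control replicate 4 was the highest library. Neither gene passed in any of the 7 comparisons.

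Control replicate 4 was also the highest library for the cytosolic partners of NOX2. Ncf1, which encodes p47phox, had 255, 437, 419 and 424 counts in AngII atria, against 203, 253, 320.0 and 966 in Control atria. Macrophage and monocyte markers, of which all 10 were tested and none passed in the average AngII comparison, summed to 18874 to 27112 in AngII and 14894 to 44826 in Control atria, with a Control maximum of 21157 once replicate 4 was left out. In the ovariectomized mice the sum was 15684 to 20346 in Ovx + AngII and 14524 to 17579 in Ovx atria. Neutrophil markers (8 genes, 3 tested, 1 at 0 in every library) summed to 114 to 223 in AngII and 68.1 to 947 in Control atria, where the highest was 104 once replicate 4 was left out. The part of these cells in the Cybb and Cyba values was not tested.

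**Figure D2:**
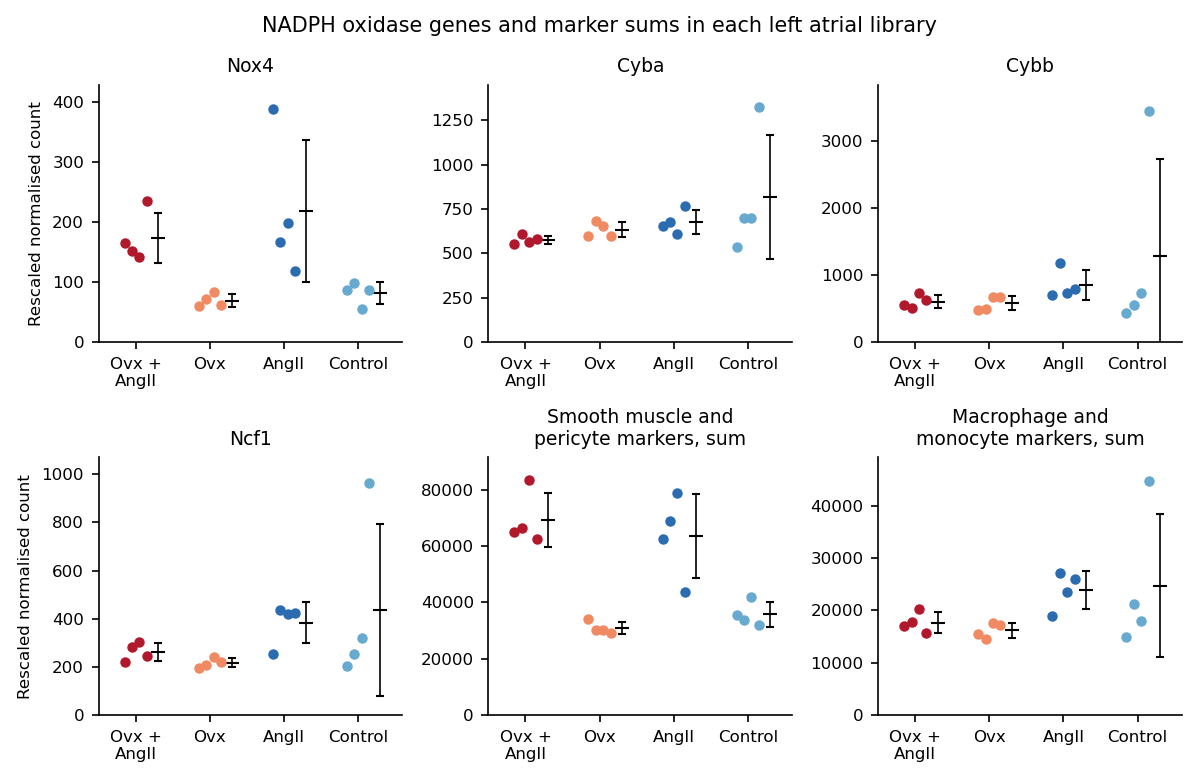
Rescaled normalised counts (y axes, each from 0) of Nox4, Cyba, Cybb and Ncf1 and of 2 marker sums in each library, with 4 points a group and the mean ± SD to the right of them (the Control bar of Cybb is cut at 0). Nox4 and the smooth muscle and pericyte sum are higher in both AngII groups, and Control replicate 4 is the highest point for Cyba, Cybb, Ncf1 and the macrophage and monocyte sum.

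The regulators did not pass in any comparison. Nfe2l2, which encodes NRF2, had 2098, 1800.2, 1906 and 1893 counts in Ovx + AngII atria, against 1773, 2266, 1939 and 2051 in Ovx atria. For Nfe2l2 there were 2381, 2484, 2244 and 2113 counts in AngII atria, against 2084, 1942, 2359.9 and 2702 in Control atria. Values overlapped in both pairs, and the average AngII effect was -0.01 ± 0.07 on the log2 scale (SE, 95% interval -0.16 to 0.13, limma adjusted p = 0.922). Keap1, which encodes the adaptor that sends NRF2 for degradation, had 1638, 1587, 1489 and 1591 counts in Ovx + AngII atria, against 1735, 1525, 1559 and 1552 in Ovx atria. For Keap1 the AngII atria had 1416, 1603, 1641 and 1747 counts, against 1794, 1583, 1661 and 1857 in Control atria. The average AngII effect on Keap1 was -0.06 ± 0.05 (SE, 95% interval -0.17 to 0.05, limma adjusted p = 0.468). These levels are of RNA, and NRF2 is mainly controlled at the protein level.

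Among the quinone reductase, the heme oxygenases and sulfiredoxin, Hmox2 was the member that passed. Hmox2, which breaks heme down to biliverdin and is not regarded as inducible in the way Hmox1 is, had 1009, 1015, 896 and 910.3 counts in Ovx + AngII atria, against 1087, 1130.3, 1112 and 1060.2 in Ovx atria. The Ovx + AngII libraries were all below the Ovx libraries. AngII atria had 853, 1001, 889 and 1093 counts of Hmox2, against 1149, 1062, 1145 and 1157 in Control atria, where AngII replicate 4 alone reached into the Control range. Hmox2 fell by 0.22 ± 0.05 in the average (SE, limma adjusted p = 0.0101), but passed in neither single comparison (limma adjusted p = 0.114 in Ovx and 0.0985 in non-Ovx mice). Hmox1, the inducible enzyme, had 346 to 546 counts in Ovx + AngII and 425 to 539 in Ovx atria. With ovaries kept it had 407 to 1324 in AngII and 428 to 1269 in Control atria. The upper ends were AngII replicate 4 and Control replicate 4, the pair with the most haemoglobin reads. Nqo1, a quinone reductase, differed by -0.20 ± 0.08 in the average (limma adjusted p = 0.0848), and Srxn1, which repairs overoxidised peroxiredoxins, by 0.14 ± 0.06 (limma adjusted p = 0.104).

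None of the 4 genes of glutathione synthesis and recycling passed. Gclc and Gclm encode the subunits of the rate-limiting ligase, Gss the enzyme of the second step, and Gsr the reductase that returns oxidised glutathione to its reduced form. Average AngII effects were -0.14 ± 0.07 for Gclc, -0.09 ± 0.11 for Gclm, 0.20 ± 0.08 for Gss and -0.10 ± 0.13 for Gsr on the log2 scale (SE). The limma adjusted p of Gss was 0.0865, the smallest of the 4. In Ovx + AngII against Ovx atria Gss was without overlap upward, at 258 to 265 against 194 to 252 counts, and Gclc without overlap downward, at 359 to 433 against 438 to 486 counts. Gsr reached 857 counts in Control replicate 4 and 393 to 464 in the other Control libraries.

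All 5 glutathione peroxidases lay above 0 in both AngII comparisons. Of all genes, 51.3% lay below 0 in Ovx + AngII against Ovx and 52.1% in AngII against Control. In the average 3 of the 5 passed, all higher, beside 9.17% of all genes higher. Gpx8, a cysteine enzyme of the endoplasmic reticulum membrane, was the member with the smallest adjusted p. It had 1022, 979.8, 1073 and 1033 counts in Ovx + AngII atria, against 836, 765, 774 and 772 in Ovx atria. The groups stood well apart, the lowest Ovx + AngII library being above the highest Ovx library. Gpx8 rose by 0.38 ± 0.06 on the log2 scale (SE, limma adjusted p = 0.00159), or 1.31-fold. AngII atria had 987, 1014, 1040.1 and 991 counts, against 756, 756, 699.6 and 653 in Control atria. Again every AngII library was above every Control library, with a rise of 0.49 ± 0.06 (limma adjusted p = 0.00186), or 1.41-fold. Gpx8 passed in both comparisons whichever library was left out, but its limma adjusted p in AngII against Control was 0.0766 in a fit of those groups alone, where 2 of the 14270 genes (0.014%) passed. The 4 Control libraries are the lowest of all 16 for this gene.

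Gpx3 and Gpx4, both selenocysteine enzymes, rose less. Gpx3 had 85656, 79475, 79675 and 83124 counts in Ovx + AngII atria, against 71776, 71123, 74413 and 67694 in Ovx atria. It had 79129, 81496, 95101 and 98474 counts in AngII atria, against 76282, 72942, 74247 and 73423 in Control atria. Neither pair overlapped, and AngII replicates 3 and 4 were the highest. Gpx3 rose by 0.23 ± 0.07 in the average (SE, limma adjusted p = 0.0452), or 1.17-fold. It missed the threshold in 13 of the 16 fits that left out 1 library, with limma adjusted p up to 0.0883. It also missed it with a pseudocount of 5 (0.0505), no filter (0.167) or upper-quartile scaling (0.0643), and without both Control replicate 4 and AngII replicate 4 (0.0568). Gpx4 had 6917, 7104, 6832 and 6267 counts in Ovx + AngII atria, against 6210.2, 5698, 6205 and 5101 in Ovx atria. It had 6753, 7894, 7424 and 7504 counts in AngII atria, against 6161, 6801, 6769 and 6828 in Control atria. The Ovx pair did not overlap, whereas AngII replicate 1 lay within the Control range. Gpx4 rose by 0.19 ± 0.05 in the average (limma adjusted p = 0.0194), or 1.14-fold.

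Gpx1 and Gpx7, the remaining peroxidases, did not pass. Gpx1, the abundant cytosolic and mitochondrial enzyme, had 2504, 2584, 2769 and 2444 counts in Ovx + AngII atria, against 2302, 2166, 2226 and 2100.0 in Ovx atria. With ovaries kept it had 2706, 3143, 2811 and 3719 counts in AngII atria, against 2075, 2565, 2438 and 3897 in Control atria. The Ovx pair did not overlap, and Control replicate 4 was the highest of all 16 libraries. Without that library Gpx1 passed in AngII against Control atria. Gpx7, the close relative of Gpx8 in the endoplasmic reticulum, ranged over 287 to 317 counts in Ovx + AngII and 218 to 329.6 in Ovx atria. Its range was 229 to 345 in AngII and 236 to 287 in Control atria, and the average effect was 0.13 ± 0.10 (SE, limma adjusted p = 0.380). The codon lines above place Gpx7 beside Gpx8 by its cysteine codon, but the pair differed in what the AngII tests gave.

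Sod3 and Sod2 moved in opposite directions. Sod3, the superoxide dismutase secreted into the extracellular matrix, had 2706, 2786, 2548 and 2749 counts in Ovx + AngII atria, against 1972, 1889.6, 2054 and 1863 in Ovx atria. All Ovx + AngII libraries lay above all Ovx libraries, with little spread in either group. Sod3 rose by 0.47 ± 0.10 (SE, limma adjusted p = 0.00651), or 1.39-fold. AngII atria had 2446, 2939, 3248 and 2961 counts, against 2015, 2501, 2519.8 and 2885 in Control atria, and these overlapped. The difference was 0.23 ± 0.10 (limma adjusted p = 0.210), and Sod3 passed there once Control replicate 4, its highest Control library, was left out. The test of the difference between the AngII effects gave 0.24 ± 0.14 (limma adjusted p = 0.839).

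Sod2, the manganese enzyme of the mitochondrial matrix, had 5364, 6666, 5006 and 5018 counts in Ovx + AngII atria, against 7264, 6423, 6922 and 6147 in Ovx atria. In AngII atria it had 4021, 5311, 5661 and 6803 counts, against 7007, 6387, 7613 and 6144 in Control atria. Values overlapped in both pairs, and AngII replicate 1 was the lowest of all libraries. Sod2 fell by 0.31 ± 0.09 in the average (SE, limma adjusted p = 0.0298), a call that was lost in 7 of the 16 fits without 1 library. Sod1 and Cat, which encodes the peroxisomal catalase, did not pass, with average effects of -0.12 ± 0.06 and -0.13 ± 0.08.

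Among the peroxiredoxins, thiol enzymes that reduce hydrogen peroxide, Prdx1 was the member that passed. Prdx1 had 4483, 4651, 4641 and 4205 counts in Ovx + AngII atria, against 5371, 5176, 5491 and 4799 in Ovx atria. It had 4301, 4628, 4755 and 4911 counts in AngII atria, against 5145, 5690.4, 5448 and 5219.8 in Control atria. Both pairs were without overlap, each library with AngII lying below each library without it on its side. Prdx1 fell by 0.21 ± 0.06 in Ovx + AngII against Ovx (SE, limma adjusted p = 0.0419) and by 0.21 ± 0.04 in the average (limma adjusted p = 0.00397). In AngII against Control the difference was -0.21 ± 0.06 (limma adjusted p = 0.0817). The call in Ovx mice was lost in 9 of the 16 fits without 1 library, with limma adjusted p up to 0.127, and with no filter (0.0535) or robust eBayes (0.0533), while that in the average stayed in all 16. Prdx2, Prdx3, Prdx5 and Prdx6 lay below 0 in both AngII comparisons without passing. Prdx5 came nearest, at -0.20 ± 0.07 in the average (limma adjusted p = 0.0579), and Prdx4, the enzyme of the endoplasmic reticulum, was at 0.07 ± 0.07.

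None of the thioredoxin genes passed. Average AngII effects were 0.06 ± 0.07 for Txn1, -0.16 ± 0.07 for the mitochondrial Txn2, -0.01 ± 0.07 for Txnrd1 and -0.13 ± 0.07 for Txnrd2 (log2, SE). Txnip had 15975, 10361, 16656 and 17549.8 counts in Ovx + AngII atria, against 25173, 13154, 15472 and 16888 in Ovx atria. It had 11988, 13558, 9719 and 6366 counts in AngII atria, against 18400.0, 11125, 16043 and 8440.4 in Control atria. Its libraries were spread widely in every group, and the average AngII effect was -0.29 ± 0.19 (limma adjusted p = 0.337).

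**Figure D3:**
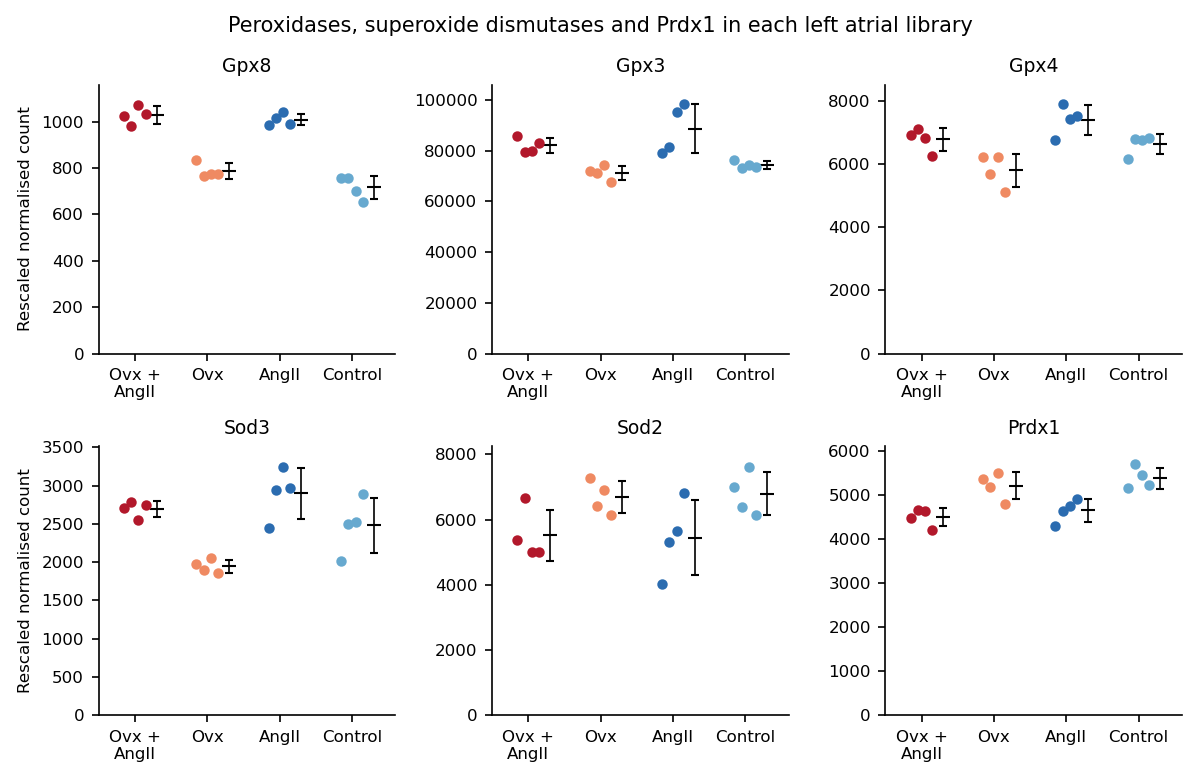
Rescaled normalised counts (y axes, each from 0) of 3 glutathione peroxidases, 2 superoxide dismutases and Prdx1 in each library, with 4 points a group and the mean ± SD to the right of them. Both AngII groups stand above their own comparison group without overlap for Gpx8 and Gpx3 and below it for Prdx1, while Sod2 overlaps in both.

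Of the 8 members that fell in the average, 5 were glutathione S-transferases. All 9 transferases lay below 0 in Ovx + AngII against Ovx atria, beside 51.3% of all genes, and 4 passed, beside 4.29% of all genes lower. In AngII against Control atria 7 of 9 lay below 0, beside 52.1% of all genes, and none passed. In the average 5 of 9 passed, all lower, beside 8.52% of all genes lower. Gstt1, a theta-class enzyme (GRCm38.p6 chromosome 10, 75783813 to 75798584), had 539, 539, 504 and 554 counts in Ovx + AngII atria, against 922, 1165, 1136 and 1200.5 in Ovx atria. The Ovx + AngII libraries lay close together and far below the Ovx libraries. Gstt1 fell by 1.04 ± 0.18 on the log2 scale (SE, limma adjusted p = 0.00252), to 0.485 of the Ovx level. AngII atria had 671, 668, 514 and 550.4 counts of Gstt1, against 1126, 867, 1049.9 and 514 in Control atria. Control replicate 4 fell among the AngII libraries, while the other Control libraries were all above them. The difference was -0.51 ± 0.18 (limma adjusted p = 0.136), and it passed without Control replicate 4. The difference between the AngII effects was -0.53 ± 0.26 (limma adjusted p = 0.830).

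The mu-class members Gstm1, Gstm2 and Gstm5 lie within 1 cluster on chromosome 3. Gstm2 (GRCm38.p6 chromosome 3, 107981702 to 107986420) had 2537, 2593, 2306 and 2253 counts in Ovx + AngII atria, against 3517, 3156, 3381 and 3143 in Ovx atria, without overlap. AngII atria had 2337, 2457, 2643 and 3294 counts of Gstm2, against 3399.9, 3605, 3221 and 2962 in Control atria, and AngII replicate 4 alone reached into the Control range. Gstm2 fell by 0.45 ± 0.09 in Ovx + AngII against Ovx (SE, limma adjusted p = 0.00792) and by 0.38 ± 0.07 in the average (limma adjusted p = 0.00125). Both calls stayed whichever library was left out. Gstm1 had 6503, 5141, 5181 and 5596 counts in Ovx + AngII atria, against 7069, 7652, 7848 and 7369 in Ovx atria. It had 5661, 7060.4, 5471 and 6324 counts in AngII atria, against 7632, 8048, 6690.3 and 5426 in Control atria. The Ovx pair did not overlap, and Control replicate 4 was again the lowest Control library. Gstm1 fell by 0.42 ± 0.11 in Ovx + AngII against Ovx (SE, limma adjusted p = 0.0280), a call lost in 6 of the 16 fits without 1 library (up to 0.0922).

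Gstm5 had 1026, 1019, 815 and 886 counts in Ovx + AngII atria, against 1189, 1252, 1199.8 and 1272 in Ovx atria. For the mice with ovaries there were 884, 1117, 1018 and 809 counts in AngII atria, against 1319, 1119.7, 1114 and 834 in Control atria. Ovx + AngII libraries all lay below Ovx libraries, whereas the other pair overlapped. Gstm5 fell by 0.29 ± 0.09 in the average (SE, limma adjusted p = 0.0310) but was at 0.0548 (limma adjusted p) in Ovx + AngII against Ovx atria. The average call was lost in 9 of the 16 fits without 1 library. The mu-class genes are similar in sequence, and how the reads of close relatives were divided among them is uncertain, so their falls may not be separate.

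Gstp1, the pi-class enzyme, had 2629, 2621, 2486 and 2422 counts in Ovx + AngII atria, against 3164, 3121, 3040.1 and 2952 in Ovx atria. It had 2502, 2539, 2421 and 2593 counts in AngII atria, against 3355, 2997, 3097 and 2589.8 in Control atria. The Ovx pair was without overlap, and the lowest Control library, replicate 4, fell just under the highest AngII library. Gstp1 fell by 0.27 ± 0.07 in Ovx + AngII against Ovx (SE, limma adjusted p = 0.0185) and by 0.26 ± 0.05 in the average (limma adjusted p = 0.00151). The call in Ovx mice was lost in 3 of the 16 fits without 1 library (up to 0.0603). In AngII against Control it was at -0.25 ± 0.07 (limma adjusted p = 0.0552). The other transferases, Gsta3, Gsta4, Mgst1 and Mgst3, did not pass, with average effects between -0.10 and -0.04. The smooth muscle and fibroblast sums given above differed between the same groups in the opposite direction. Atrial cardiomyocyte markers (8 genes, 2 higher in the average) also summed higher in Ovx + AngII (1926550 to 2114580) than in Ovx atria (1583540 to 1834530). Their sum overlapped between AngII (1744940 to 2124940) and Control atria (1456720 to 1817580). The part of these cells in the falls was not tested.

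**Figure D4:**
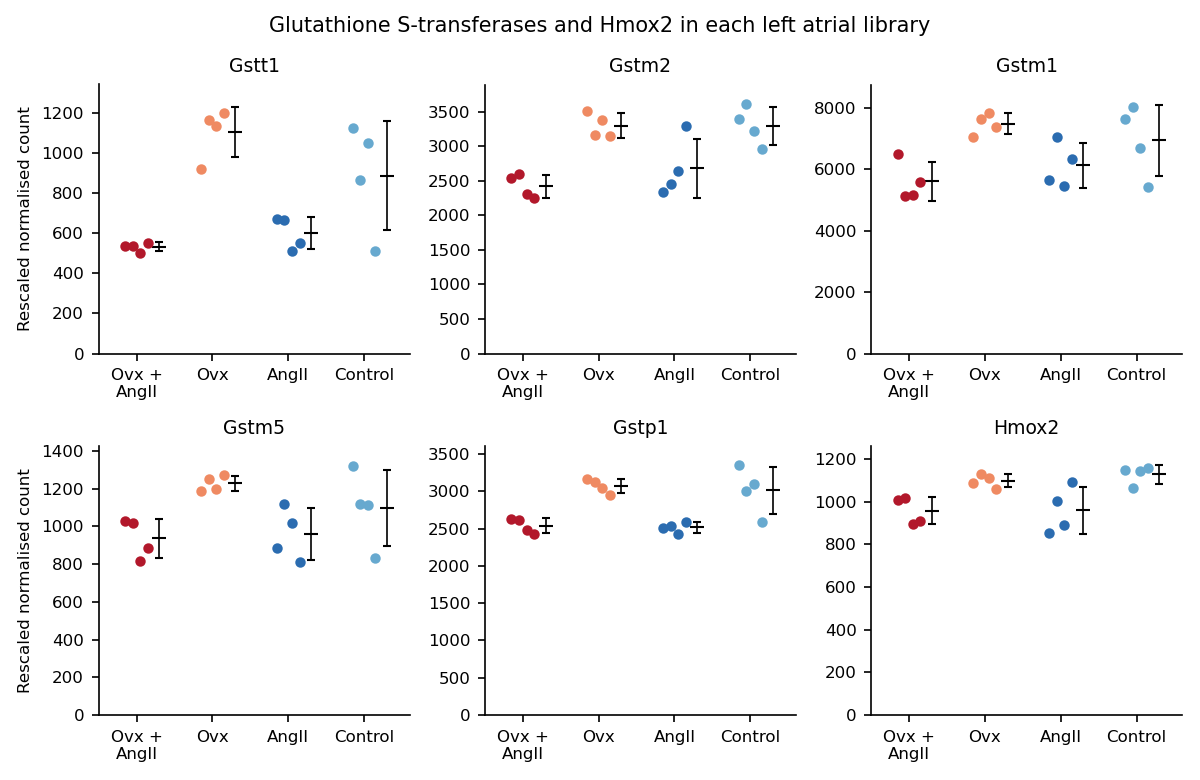
Rescaled normalised counts (y axes, each from 0) of 5 glutathione S-transferases and Hmox2 in each library, with 4 points a group and the mean ± SD to the right of them. Every Ovx + AngII library lies below every Ovx library for all 6 genes, while the AngII and Control libraries overlap for each of them.

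The number of members that passed in AngII against Control atria moved with the libraries left out, as did the share of all genes. Without Control replicate 4, 9 members passed, Gpx8 and Nox4 again among them, beside 10.4% of all genes. Of the 9, Gpx1, Gpx8, Sod3 and Nox4 were higher and Prdx1, Gstm2, Gstp1, Gstt1 and Mgst3 lower. Without AngII replicate 4 there were 4, beside 4.65% of all genes, and Hmox2 and Gstm2, both lower, joined Gpx8 and Nox4. With both libraries left out, a choice made after seeing the data, 13 members passed, 3 higher and 10 lower, beside 12.4% of all genes. In Ovx + AngII against Ovx atria those settings gave 9, 9 and 10 members, beside 14.2%, 10.7% and 15.1% of all genes, with all 8 of the original calls among them each time.

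The next question was whether ovariectomy changed these genes. No member passed in Ovx against Control, in Ovx + AngII against AngII or in the average of both, and neither did any of the 14270 genes (0% called). At an unadjusted limma p under 0.05 there were 3 members in Ovx against Control (8.65% of all genes), 2 in Ovx + AngII against AngII (6.17%) and 6 in the average (9.26%). Values did not overlap for 1 member in Ovx against Control, which was higher (4.46% of all genes, 2.22% higher), and for 1 in Ovx + AngII against AngII, which was lower (4.54% of all genes, 2.38% lower), and for none in both, beside 0.119% of all genes.

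The member without overlap in Ovx against Control was Gpx8, at 836, 765, 774 and 772 counts in Ovx and 756, 756, 699.6 and 653 in Control atria. Ovx libraries were all higher, but only just, and the log2 fold change was 0.14 ± 0.06 (SE, 95% interval 0.00 to 0.27, limma adjusted p = 0.565). In Ovx + AngII against AngII atria the member was Nfe2l2, which was lower at 2098, 1800.2, 1906 and 1893 counts in Ovx + AngII and 2381, 2484, 2244 and 2113 in AngII atria. Its log2 fold change was -0.26 ± 0.10 (SE, 95% interval -0.47 to -0.05, limma adjusted p = 0.726). Over both comparisons the Ovx effect on Nfe2l2 was -0.22 ± 0.07 (SE, 95% interval -0.36 to -0.07, limma adjusted p = 0.441).

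Sod3 had the smallest unadjusted p of the members in the average Ovx effect. It had 1972, 1889.6, 2054 and 1863 counts in Ovx atria, against 2015, 2501, 2519.8 and 2885 in Control atria, a log2 difference of -0.34 ± 0.10 (SE, 95% interval -0.55 to -0.13, limma adjusted p = 0.563). Control replicate 1 alone lay within the Ovx range. In Ovx + AngII against AngII atria the Sod3 difference was -0.10 ± 0.10 (95% interval -0.30 to 0.11). Gpx4 differed by -0.16 ± 0.05, Gpx1 by -0.27 ± 0.10 and Gclm by -0.29 ± 0.11 in the average, all lower in Ovx mice. Control replicate 4 was the highest Control library for Sod3, Gpx1 and Gclm, and their Ovx effects without it are not given here. With that library left out, no member passed in any Ovx comparison, and the median member effect in Ovx against Control was -0.05. Txnip was the member above 0 among the 6, at 0.49 ± 0.19 (SE, 95% interval 0.08 to 0.90, limma adjusted p = 0.497).

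For Nox4 the Ovx effect was -0.23 ± 0.29 in Ovx against Control (95% interval -0.83 to 0.38) and -0.21 ± 0.29 in Ovx + AngII against AngII atria (95% interval -0.82 to 0.39). These intervals are wide, so the level of Nox4 was not shown to be the same with and without ovaries. Genes with little spread had narrower intervals, such as Prdx1 at -0.18 to 0.09 in Ovx against Control and -0.18 to 0.09 in Ovx + AngII against AngII atria. The median Ovx effect over the 42 members was -0.09 in Ovx against Control and -0.07 in Ovx + AngII against AngII atria, where all genes had -0.01 and 0.01. Below 0 were 29 members in each, beside 51.9% and 48.1% of all genes. These comparisons rest on the rescaling, since the table carries the Ovx and non-Ovx libraries on scales 0.17 apart on the log2 scale. On the values as deposited, which shift the median of all genes to -0.17, 9 members passed in Ovx against Control and 27 in the average Ovx effect, all lower. These calls contain that shift, and the share of all genes that passed is not given here. The counts are therefore not a result about the members.

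**Figure D5:**
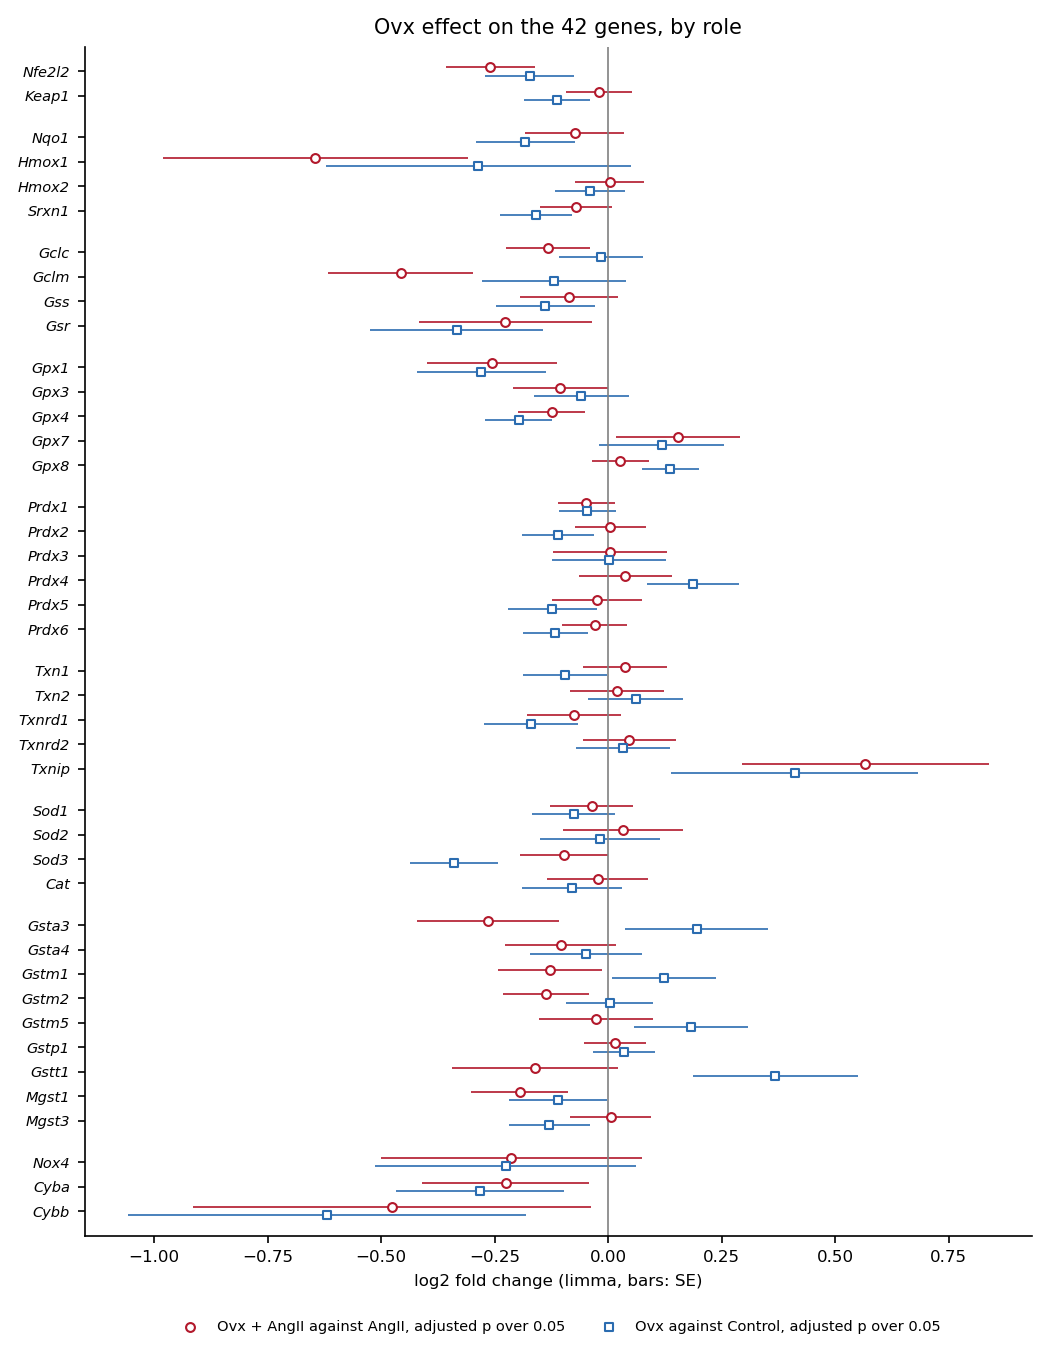
Log2 fold changes of the 42 genes (x axis, limma, bars are the SE) in Ovx + AngII against AngII (red circles) and Ovx against Control (blue squares) atria, with genes down the page by role. All symbols are open because no adjusted p was at most 0.05, and Txnip lies farthest to the right in both comparisons.

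The last comparison asked whether AngII acted differently in ovariectomized mice. No member and no gene passed (0% called), and at an unadjusted limma p under 0.05 there were 0 members, beside 829 genes (5.81%). Gsta3, an alpha-class transferase, had the smallest p of the members, at -0.46 ± 0.22 (SE, 95% interval -0.93 to 0.01, limma adjusted p = 0.830), followed by Gstt1. For Nox4 the difference was 0.01 ± 0.41 with a 95% interval of -0.85 to 0.87, and for Gpx8 it was -0.11 ± 0.09 with an interval of -0.30 to 0.08. The larger number of calls in Ovx + AngII against Ovx atria is thus not shown to be a larger response. Separately, the libraries of the Ovx side varied less. The shared fit uses 1 estimate of spread per gene, so each gene has the same SE in both AngII comparisons. Where a gene varied more with ovaries kept, that SE is too small for AngII against Control. It is then too large for Ovx + AngII against Ovx. In fits of the compared groups alone, 0 members passed in AngII against Control (0.014% of all genes). In Ovx + AngII against Ovx there were 10 (17.4%). The median SD of the members' log2 values was 0.10 in Ovx + AngII and 0.09 in Ovx, against 0.16 in AngII and 0.18 in Control atria. Over all genes it was 0.16 in Ovx + AngII and 0.13 in Ovx, against 0.18 in AngII and 0.21 in Control atria. Among the members, Cybb in Control atria had the widest SD, at 1.35.

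Other genes of the same pathways were followed with 5 lists of 99 genes, of which 89 were tested. Among other glutathione enzymes and transporters, 20 of 27 were tested and 9 passed in the average AngII comparison, 8 lower and 1 higher, beside 17.7% of all genes. Of these, 5 were lower in Ovx + AngII against Ovx and 1 in AngII against Control atria. Gstm6, another gene of the mu-class cluster, had 177, 219, 189 and 131 counts in Ovx + AngII atria, against 253, 272, 309.8 and 244 in Ovx atria. In AngII atria it had 150.1, 193, 134 and 201 counts, against 261, 282, 309 and 242 in Control atria. Neither pair overlapped, and Gstm6 fell by 0.65 ± 0.11 in the average (SE, limma adjusted p = 0.00109). Oplah, the 5-oxoprolinase that returns glutamate from glutathione breakdown, fell by 0.39 ± 0.07 (limma adjusted p = 0.00119). Gstt2, a theta-class relative of Gstt1, fell by 0.49 ± 0.11 (limma adjusted p = 0.00618). Ggt5, a gamma-glutamyltransferase, fell by 0.46 ± 0.11 (limma adjusted p = 0.00952).

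The NADPH supply list held 13 genes, all tested, and 4 passed in the average, all lower, beside 8.52% of all genes lower. Tkt, the transketolase of the pentose phosphate pathway, fell by 0.30 ± 0.08 (SE, limma adjusted p = 0.0123) and was the gene of this list that passed in Ovx + AngII against Ovx atria. Me3, the mitochondrial malic enzyme, fell by 0.38 ± 0.11 (limma adjusted p = 0.0232). Idh2, the mitochondrial isocitrate dehydrogenase, fell by 0.24 ± 0.07 (limma adjusted p = 0.0302), and Aldh1l1, a folate enzyme, by 0.51 ± 0.17 (limma adjusted p = 0.0486). Among other NADPH oxidase subunits and oxidant enzymes, 12 of 15 were tested, and Maob was the gene that passed, beside 17.7% of all genes in the average. Maob, a monoamine oxidase of the outer mitochondrial membrane that releases hydrogen peroxide, had 1541, 1369, 1139 and 1258 counts in Ovx + AngII atria, against 2189.6, 2515, 2049.8 and 2564 in Ovx atria. It had 1048, 1423, 1237 and 1363 counts in AngII atria, against 2557, 2171, 2176 and 1551 in Control atria. Maob was lower in each library with AngII than in each without it on its side, with a fall of 0.81 ± 0.14 in Ovx (limma adjusted p = 0.00215) and 0.72 ± 0.14 in non-Ovx mice (limma adjusted p = 0.0137).

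In the list of other NRF2 partners and targets, all 23 were tested and 6 passed in the average, 5 higher and 1 lower, beside 9.17% of all genes higher and 8.52% lower. Mafk, a small MAF protein that pairs with NRF2 on DNA, had 1459, 1320.2, 1772 and 1264 counts in Ovx + AngII atria, against 717, 753, 1014 and 756 in Ovx atria. In AngII atria it had 1355, 1368, 1824 and 1384 counts, against 868, 871, 952 and 1389 in Control atria. The Ovx pair did not overlap, whereas Control replicate 4 reached the AngII range, and Mafk rose by 0.70 ± 0.11 in the average (SE, limma adjusted p = 0.000546). Aldh3a1, an aldehyde dehydrogenase, rose by 1.16 ± 0.26 (limma adjusted p = 0.00534). Tsku, which encodes the secreted protein tsukushi, rose by 0.43 ± 0.11 (limma adjusted p = 0.0121), and Ugdh, which makes UDP-glucuronate, by 0.26 ± 0.07 (limma adjusted p = 0.0143). Among 21 glutaredoxins, methionine sulfoxide reductases and other thiol enzymes, 8 passed in the average, 7 higher and 1 lower, beside the same 9.17% and 8.52% of all genes. Pon2, a paraoxonase, rose by 0.26 ± 0.05 (limma adjusted p = 0.00221), and Msrb3, a methionine sulfoxide reductase of the endoplasmic reticulum, by 0.27 ± 0.06 (limma adjusted p = 0.00478). Txndc5, a disulfide isomerase of the endoplasmic reticulum, rose by 0.22 ± 0.05 (limma adjusted p = 0.00778). Msrb2, the mitochondrial methionine sulfoxide reductase, fell by 0.38 ± 0.09 (limma adjusted p = 0.00662).

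The 25 members that met none of the rules for being described one by one had log2 fold changes between -0.33 for Gsta3 and 0.23 for Gpx1 in Ovx + AngII against Ovx, and between -0.37 for Txnip and 0.20 for Gpx1 in AngII against Control atria. Their smallest limma adjusted p was 0.165, for Srxn1, in Ovx + AngII against Ovx and 0.178, for Prdx5, in AngII against Control.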

How the data were processed

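Gene expression in the LA of female mice was measured by stranded mRNA sequencing of 16 libraries. The authors aligned reads with STAR, quantified genes with Salmon and ran DESeq2, all against mm10, and no versions are given in the sources used here. What the authors deposited for each gene is a normalised signal (estimated reads after scaling by size factors), with decimals. The table carries the Ovx and non-Ovx libraries on 2 scales, so all values were divided by median-of-ratios factors (0.941 to 0.946 for Ovx + AngII and Ovx, 1.05 to 1.06 for AngII and Control libraries). Depth was not counted from reads here, and column totals stand in for it. Dates stood in place of 14 gene symbols (0.0721% of all values), and these features stayed in the fit but are not named.

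Genes with a mean of at least 10 (14270) entered as log2(value + 1), which understates the fold changes of low genes. All 16 libraries shared a limma 3.58.1 fit in R 4.3.3 of the 4 group means (eBayes with a mean trend, two-sided, Benjamini-Hochberg adjustment within each of 7 comparisons). SEs and 95% intervals are the moderated ones. The script was tested on simulated data. Groups came from the labels, whose replicate numbers follow the order of deposition and pair no libraries.

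The 42 members and all lists were chosen with earlier results of these data known. Members past the adjusted p in any comparison, or without overlap in both AngII or both Ovx comparisons, together with Nfe2l2, Keap1, Nox4, Cyba and Cybb, are given per library, and up to 4 passing genes of each pathway list are named, by smallest p. A few others (Hmox1, Gpx1, Txnip, Ncf1, Gss, Gclc and Gsr among them) are given by their values, having been chosen after these were seen. The alternatives were pseudocounts of 0.5 and 5, other filters and scalings, robust, array-weighted and voom fits, fits of the compared groups only, and each library left out. Positions and promoters are from RefSeq (GRCm38.p6, the build named mm10), and codon windows from GENCODE transcripts.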

Additional observations from a re-analysis of the deposited data

Results flagged for a closer look

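Within each group of 4 libraries the highest or lowest library was compared with its neighbour for each member. In 15 of 168 member and group pairs that library stood farther off than Dixon's 95% limit, and chance alone marks about 1 in 20. Control replicate 4 was the library in 5 of the 15. It had 3450 rescaled counts of Cybb, against 730 in the next Control library, and 1269 of Hmox1, against 551. It also had 857 of Gsr, against 464, and 1440 of Txn1, against 1166, while Sod1 was low at 3216, against 4184 in the next lowest. This is the library with 0.550% haemoglobin reads and the highest macrophage and monocyte marker sum, and the part of these cells in its values was not tested.

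Other Control libraries stood off for Hmox2 (1062 in replicate 2, low), Gpx4 (6161 in replicate 1, low), Gpx7 (287 in replicate 3, high) and Gsta3 (409 in replicate 2, high). Among Ovx libraries these were Keap1 (1735 in replicate 1, high), Gpx8 (836 in replicate 1, high), Gclm (327 in replicate 4, low) and Mgst1 (1174 in replicate 3, high). In AngII replicate 2 Cybb was high at 1191, and in Ovx + AngII replicate 1 Txnrd2 was high at 360.0.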

How the results depend on the processing

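No member that passed changed direction under any alternative. Of 23 passing tests of members, 16 still passed in every fit without 1 library and 19 under every other alternative. In AngII against Control atria the count of passing members, 2 as reported, was 4 with equal column totals (2 higher and 2 lower), 6 with array weights and 1 with voom weights. It was 13 without Control replicate 4 and AngII replicate 4, beside 12.4% of all genes, and 1 to 9 without 1 library. In a fit of those 8 libraries alone it was 0, beside 0.014% of all genes. In that fit of 8 libraries the limma adjusted p was 0.0766 for Gpx8 and 0.197 for Nox4, and with voom weights it was 0.0528 for Nox4. In Ovx + AngII against Ovx atria the count, 8 as reported, was 5 to 9 without 1 library, the lowest without Ovx replicate 2, Ovx + AngII replicate 3 or Ovx + AngII replicate 4. With equal column totals 3 members were higher and 7 lower. In a fit of the Ovx + AngII and Ovx libraries alone the count was 10, beside 17.4% of all genes. The average AngII count of 13 was 20 without both of the libraries rich in haemoglobin, and 17 with equal column totals (5 higher and 12 lower). Counts for Ovx, 0 as reported, were 9 in Ovx against Control and 27 in the average on values as deposited, which contain the scale difference, and 0 under the other alternatives. Where no share of all genes stands beside a count in this section, its change is not read as particular to the members. Prdx1 in Ovx + AngII against Ovx missed the threshold with no filter and with robust eBayes. Gpx3 in the average missed it with a pseudocount of 5, no filter or upper-quartile scaling, and without both of the libraries rich in haemoglobin. The causes were not tested. No paired analysis was possible because replicate numbers follow the order of deposition and the labels share none between groups. With 4 libraries a group, the average AngII effects on Gpx3, Gstm5 and Sod2 lie near the threshold, as does that on Prdx1 in Ovx + AngII against Ovx. Calls for Nox4 in AngII against Control and for Gstm1 and Gstp1 in Ovx + AngII against Ovx were also lost in some fits without 1 library.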
